A study of Mus musculus with 3 samples.

Results

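The miR-181 family was followed through postnatal heart growth in small RNA libraries of hearts from wild type C57BL/6 mice at postnatal day 1 (P1), day 7 (P7) and day 28 (P28), with 1 library per age. The labels give the tissue as hearts and name no treatment, and the study describes it as cardiac ventricles. Whether a library held 1 heart or pooled hearts is not given in the sources used here. The family was taken as 4 mature microRNAs (miRNAs), by their miRBase accessions: MIMAT0000210 (miR-181a-5p), MIMAT0000673 (miR-181b-5p), MIMAT0000674 (miR-181c-5p) and MIMAT0004324 (miR-181d-5p). They made up 6 of the 2049 rows of the count table and 4 of its 1900 mature accessions, of which 851 had at least 1 read.

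A miRNA is cut as a short duplex from a hairpin precursor, and 1 strand of the duplex is loaded into Argonaute. The 5p members are those from the 5′ arm of the hairpin. The seed of a miRNA, bases 2 to 8, pairs with messenger RNAs and lowers their output, so miRNAs that share a seed are expected to share many targets. In the miR-181 family, miR-181a is known for tuning T cell receptor signalling in developing lymphocytes, miR-181b for restraining inflammatory signalling in vascular endothelium, and miR-181c for acting on a mitochondrial cytochrome c oxidase message in cardiomyocytes.

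The mature sequences are shown because the family is defined by its seed and because the members differ by few bases, which bears on how their reads can be told apart. They are given 5′ to 3′ as in RefSeq on GRCm38, the assembly also called mm10, with the seed in capitals.
miR-181a-5p: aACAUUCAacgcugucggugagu
miR-181b-5p: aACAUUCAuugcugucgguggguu
miR-181c-5p: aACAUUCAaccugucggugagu
miR-181d-5p: aACAUUCAuuguugucggugggu

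All 4 members had the same seed, and of 1679 mature mouse miRNA names in the RefSeq table these 4 were the only ones with it. Beyond the seed they fell into pairs. The sequence of miR-181c-5p was that of miR-181a-5p without the G at position 11, counted from 1 at the 5′ end. Apart from the last base of miR-181b-5p, which miR-181d-5p lacked, miR-181b-5p and miR-181d-5p differed only by C12U. In contrast, miR-181a-5p and miR-181b-5p differed at 3 positions (A9U, C10U and A21G) and by 1 base in length.

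The family comes from 6 loci in 3 clusters. On chromosome 1, plus strand, Mir181a-1 (chr1:137966455-137966541) and Mir181b-1 (chr1:137966639-137966718) were 97 bases apart and overlapped, on the same strand, an exon of the long noncoding RNA gene A430106G13Rik and an intron of the noncoding gene Gm4258. An intron of Gm26936, another long noncoding RNA gene, lay on the opposite strand. On chromosome 2, plus strand, Mir181a-2 (chr2:38852735-38852810) and Mir181b-2 (chr2:38853830-38853918) were 1019 bases apart within an intron of Nr6a1, a gene for an orphan nuclear receptor, on its opposite strand. Mir181b-2 also lay opposite an exon of the unclassified gene Gm44144. On chromosome 8, minus strand, Mir181c (chr8:84178873-84178961) and Mir181d (chr8:84178716-84178787) were 85 bases apart within an intron of Nanos3, a gene for an RNA-binding protein of germ cells, on the same strand. In each cluster, therefore, a member of the a and c sequence type was followed by a member of the b and d type.

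**Figure D1:**
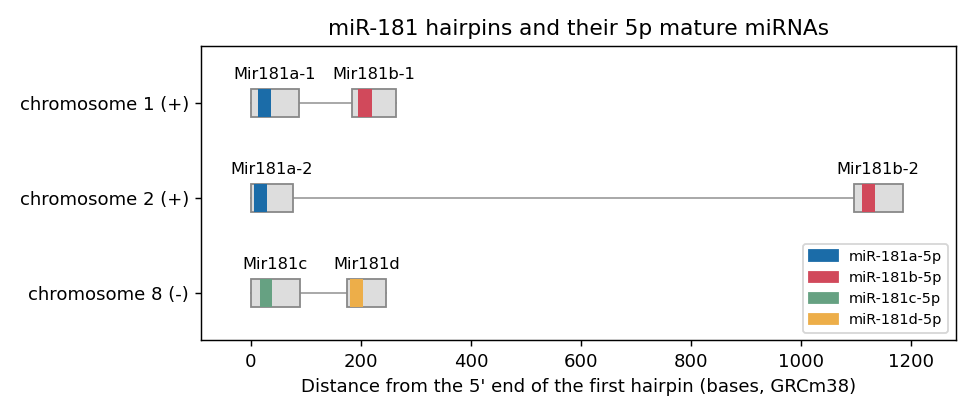
Map of the 3 miR-181 clusters, with the distance in bases from the 5′ end of the first hairpin on the x axis. Grey boxes are hairpins and coloured boxes the 5p mature miRNAs. The hairpins of a cluster were 97, 1019 and 85 bases apart, from top to bottom.

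The numbers of rows in the count table matched these loci. miR-181a-5p and miR-181b-5p, with 2 loci each, had 2 rows each, and miR-181c-5p and miR-181d-5p, with 1 locus each, had 1 row each. The table does not say which row belongs to which locus. The first 30 bases from the start of the mature miRNA are shown at the paired loci, with the bases that differ between them in capitals.
Mir181a-1: aacauucaacgcugucggugaguuuggAau
Mir181a-2: aacauucaacgcugucggugaguuuggGau
Mir181b-1: aacauucauugcugucgguggguuGAaCug
Mir181b-2: aacauucauugcugucgguggguuUGaAug

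The miR-181a-5p loci were identical over the 23 mature bases, 1 base before them and 4 bases after them. A read of this miRNA that begins at its annotated start therefore carries a base that differs between the loci only if it reaches position 28. The miR-181b-5p loci were identical over the 24 mature bases and 2 bases before them, and first differed at position 25, the base that follows.

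Reads of miR-181a-5p were split nearly evenly between its rows. The row without a suffix held 1189, 1703 and 1408 reads in the P1, P7 and P28 libraries, and the other row held 1118, 1762 and 1345 reads. The first row thus had 51.5% of the miR-181a-5p reads in the P1 library (95% Wilson interval 49.5 to 53.6), 49.1% in the P7 library (47.5 to 50.8) and 51.1% in the P28 library (49.3 to 53.0). All of these intervals contained an even split. For miR-181b-5p, the row without a suffix held 461, 529 and 313 reads at P1, P7 and P28, and the other row 611, 621 and 356 reads. Its share in the same order was 43.0% (40.1 to 46.0), 46.0% (43.1 to 48.9) and 46.8% (43.0 to 50.6). The intervals of P1 and P7 lay below an even split, and that of P28 contained it. How reads that fit several loci were assigned is not given in the sources used here. No other row of the table matched a miR-181 row within 1% in each library.

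Rows of an accession were summed, and counts were scaled to a column total of 1000000 to give CPM. TMM factors and DESeq2 size factors, which assume that most features do not change, were the main alternatives. The column totals were 1944237 for P1, 2465680 for P7 and 2842526 for P28. With 1 library per age, the spread between hearts could not be estimated and no test between ages was made. All intervals are 95% intervals, cover counting error only and compare libraries, not ages. In RNA from heart tissue, fewer cells of a type and less RNA per cell cannot be told apart. Rows could not be checked against miRNAs that mark heart muscle, blood or other cells, since the table gives accessions without names.

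miR-181a-5p was the most abundant member at every age. The P1 library gave 2307 reads, or 1187 CPM (Wilson interval 1139 to 1236). In the P7 library there were 3465 reads, or 1405 CPM (1359 to 1453), and in the P28 library 2753 reads, or 969 CPM (933 to 1005). By the column total its level was thus highest at P7 and lowest at P28, but this order depended on the scaling: under TMM factors its log2 ratio was 0.33 for P28 over P1 and 0.02 for P28 over P7, and under DESeq2 size factors 0.34 and 0.11. It ranked 51st, 45th and 46th among mature accessions at P1, P7 and P28.

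miR-181b-5p was the next most abundant. The P1 library gave 1072 reads, or 551 CPM (519 to 585). In the P7 library there were 1150 reads, or 466 CPM (440 to 494), and in the P28 library 669 reads, or 235 CPM (218 to 254). Each age was lower than the one before it by more than the counting error, and the rank went from 67 through 78 to 82.

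miR-181d-5p followed the same order of ages at a lower level. The P1 library gave 497 reads, or 256 CPM (234 to 279). In the P7 library there were 520 reads, or 211 CPM (194 to 230), and in the P28 library 349 reads, or 123 CPM (111 to 136). Its rank was 108, 108 and 107 in turn, so its place among accessions hardly moved while its CPM became lower.

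miR-181c-5p, encoded in the same cluster as miR-181d-5p, was the rarest. The P1 library gave 42 reads, or 21.6 CPM (16.0 to 29.2). In the P7 library there were 88 reads, or 35.7 CPM (29.0 to 44.0), and in the P28 library 84 reads, or 29.6 CPM (23.9 to 36.6). The intervals of P7 and P28 overlapped widely, the order of these ages turned under TMM and DESeq2 factors, and those of P1 and P7 overlapped narrowly. Its rank was 233 at first, then 201 and 175.

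The order of the members, with miR-181a-5p first, then miR-181b-5p, miR-181d-5p and miR-181c-5p, was the same in all 3 libraries, and with rows summed the intervals of neighbouring members did not overlap. The place of miR-181b-5p above miR-181d-5p rested on summing: at P28 its larger row alone had 125 CPM (113 to 139) against 123 CPM for miR-181d-5p, and its smaller row had fewer reads than miR-181d-5p in the P1 and P28 libraries. The family sum came to 3918 reads, or 2015 CPM (1953 to 2079), in the P1 library. It came to 5223 reads, or 2118 CPM (2062 to 2176), in the P7 library and to 3855 reads, or 1356 CPM (1314 to 1400), in the P28 library. The intervals of P1 and P7 overlapped, and P28 was lowest by the column total, whereas under TMM and DESeq2 factors P28 lay above P1 by a log2 ratio of 0.054 and 0.058.

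**Figure D2:**
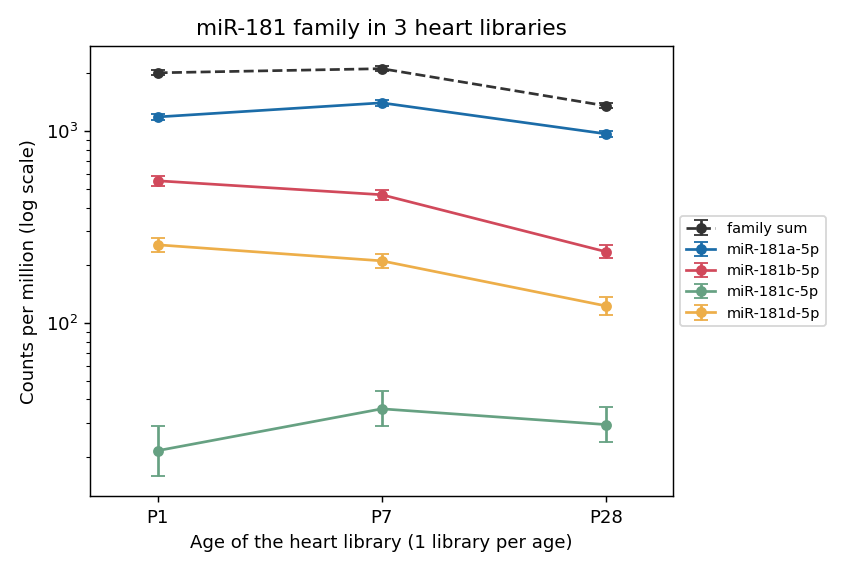
Level of each miR-181 member and of their sum (CPM, log scale) in the P1, P7 and P28 heart libraries, with 95% Wilson intervals for counting error. miR-181b-5p and miR-181d-5p were lower at each step, while miR-181a-5p and miR-181c-5p were highest at P7 by the column total, at 1405 and 35.7 CPM. Under TMM and DESeq2 factors both were higher at P28 than at P7, by log2 ratios of 0.02 and 0.11 for miR-181a-5p and 0.29 and 0.38 for miR-181c-5p.

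The comparison of P7 with P1 covered the first postnatal week, when most mouse cardiomyocytes leave the cell cycle. Ratios are given on the log2 scale with 0.5 reads added, with Clopper-Pearson intervals. miR-181a-5p was higher at P7 by 0.24 (0.17 to 0.32) and miR-181c-5p by 0.72 (0.18 to 1.29). miR-181b-5p had a log2 ratio of -0.24 (-0.36 to -0.12) and miR-181d-5p of -0.28 (-0.46 to -0.10). None of the 4 members passed a 2-fold difference in either direction. Of the 279 mature accessions that averaged 10 CPM or more over the libraries, 11.1% passed 2-fold upwards and 11.5% downwards at P7. Their median log2 ratio was 0.03. The family sum had a log2 ratio of 0.07 (0.01 to 0.13), with the higher and lower members offsetting each other.

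Between P1 and P28, the longest interval, miR-181b-5p and miR-181d-5p were the 2 members that passed the 2-fold threshold by the column total, and both were lower at P28. Neither passed it under TMM factors, DESeq2 size factors or the total without the 10 most abundant rows, where miR-181b-5p was at -0.60, -0.60 and -0.74 and miR-181d-5p at -0.43, -0.43 and -0.57. miR-181b-5p had a log2 ratio of -1.23 (-1.37 to -1.09), which is 2.34-fold lower, and miR-181d-5p of -1.06 (-1.26 to -0.86), which is 2.08-fold lower. The interval of miR-181d-5p extended to less than 2-fold. Both rows of miR-181b-5p were past the threshold, at -1.11 (-1.32 to -0.90) and -1.33 (-1.52 to -1.14). miR-181a-5p was lower by a log2 ratio of -0.29 (-0.37 to -0.21), and its rows were at -0.30 and -0.28. miR-181c-5p was at 0.44 (-0.10 to 1.02), an interval that contained no change.

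These counts were read against the other accessions. At P28 against P1, 42.7% of the 279 tested accessions were lower by at least 2-fold, 13.6% were higher, and the median log2 ratio was -0.74, so that 2 of 4 members lower lay close to the background. With TMM factors, 69 were higher and 80 lower, against 38 and 119 by the column total. Relative to the median by the column total, miR-181b-5p was at -0.49 and miR-181d-5p at -0.32, while miR-181a-5p was at 0.44 and miR-181c-5p at 1.18. Of the tested accessions, 37.3% had a lower ratio than miR-181b-5p, 41.2% than miR-181d-5p, 60.2% than miR-181a-5p and 77.1% than miR-181c-5p. The first 3 of these thus lay between the quartiles of the tested accessions, -1.85 and 0.35, and miR-181c-5p above the upper one.

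The comparison of P28 with P7 gave lower values for every member by the column total, but under TMM factors miR-181a-5p was at 0.02 and miR-181c-5p at 0.29. miR-181b-5p had a log2 ratio of -0.99 (-1.13 to -0.85), just inside the 2-fold threshold, miR-181d-5p of -0.78 (-0.98 to -0.58), miR-181a-5p of -0.54 (-0.61 to -0.46) and miR-181c-5p of -0.27 (-0.72 to 0.18). No member passed 2-fold, against 42.7% of tested accessions lower and 2.87% higher, with a median log2 ratio of -0.79. TMM factors gave 28 higher and 70 lower, against 8 and 119 by the column total. The rows of miR-181b-5p lay on either side of the threshold, at -0.96 and -1.01.

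**Figure D3:**
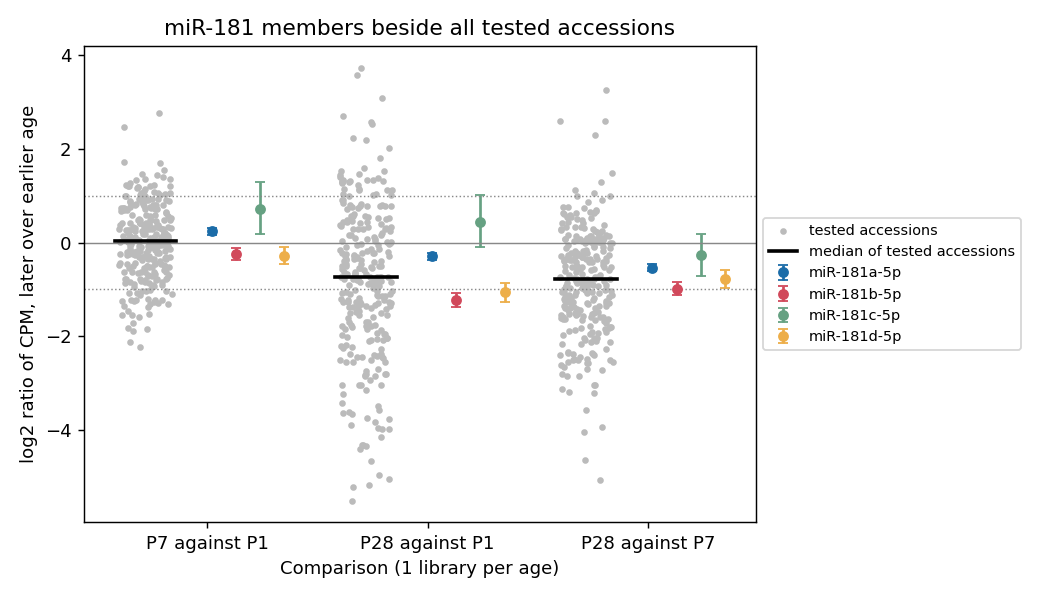
Log2 ratios of CPM for the 4 miR-181 members (coloured, with 95% Clopper-Pearson intervals) beside the 279 tested accessions (grey points, black bar for the median) in the 3 comparisons. Dotted lines mark 2-fold. At P28 against P1, miR-181b-5p and miR-181d-5p lie below -1 and below the median of -0.74, and miR-181a-5p and miR-181c-5p above that median.

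Directions against P28 depended on the scaling between libraries for some members. Under TMM factors, the median log2 ratio of the tested accessions at P28 against P1 rose by 0.62, and miR-181a-5p went from -0.29 to 0.33 and the family sum from -0.57 to 0.054. With the same factors miR-181c-5p was at 1.07 and was the member that passed 2-fold, as did 69 of the 279 tested accessions upwards. Its P1 value rests on 42 reads, and its interval by the column total was -0.10 to 1.02. Ratios were set out over 7 settings: 5 scalings including the column total, a larger pseudocount and 1 row per accession. At P28 against P1, miR-181b-5p and miR-181d-5p were below 0 in 7 of 7 and miR-181c-5p was above 0 in 7 of 7. miR-181a-5p was above 0 in 3 and below 0 in 4. At P28 against P7, miR-181b-5p and miR-181d-5p were again below 0 in 7 of 7. There miR-181c-5p was above 0 in 3 and below 0 in 4, and miR-181a-5p above 0 in 2 and below 0 in 5. The setting of 1 row per accession could not move miR-181c-5p or miR-181d-5p, which have 1 row each. A change of scaling adds the same amount to the log2 ratio of every member, so the distances between members are kept by construction.

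**Figure D4:**
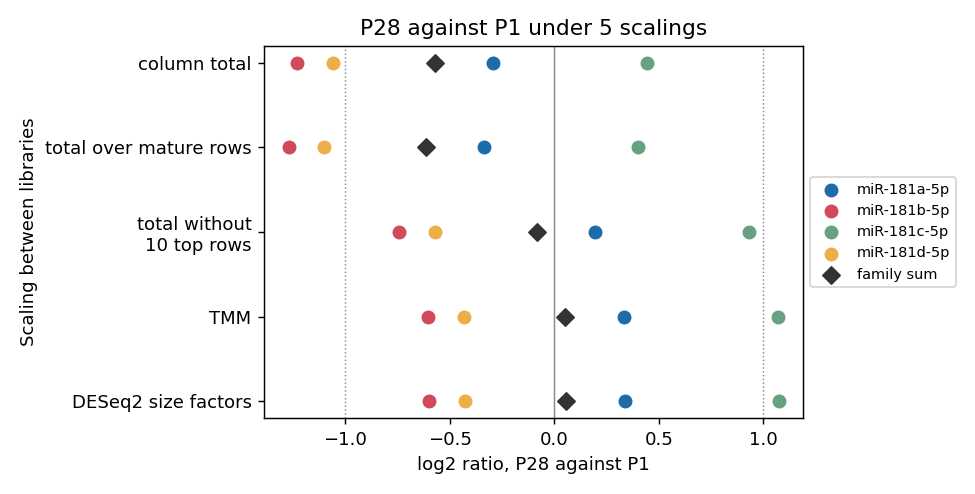
Log2 ratio of P28 against P1 for each miR-181 member and for the family sum under 5 scalings between libraries, with dotted lines at 2-fold. The order of the members is the same in each scaling by construction. miR-181a-5p and the family sum move across 0, from -0.29 to 0.33 and from -0.57 to 0.054 between the column total and TMM.

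The composition of the family within a library does not depend on scaling between libraries. miR-181a-5p held 58.9% of the family's reads in the P1 library (Wilson interval 57.3 to 60.4), 66.3% in the P7 library (65.0 to 67.6) and 71.4% in the P28 library (70.0 to 72.8). miR-181b-5p, in the same order, held 27.4% (26.0 to 28.8), 22.0% (20.9 to 23.2) and 17.4% (16.2 to 18.6). For both, the intervals of the 3 libraries did not overlap. miR-181d-5p held 12.7% (11.7 to 13.8), 9.96% (9.17 to 10.8) and 9.05% (8.19 to 10), with overlapping intervals in the last pair of libraries. The share of miR-181c-5p went from 1.07% (0.79 to 1.45) through 1.68% (1.37 to 2.07) to 2.18% (1.76 to 2.69). As the sequence type with U at positions 9 and 10, miR-181b-5p and miR-181d-5p jointly held 40.0% of family reads in the P1 library, which went to 32.0% and then 26.4%. With only the row of most reads per accession, which leaves out a row of miR-181a-5p and of miR-181b-5p, the miR-181d-5p share was 21.2%, 17.7% and 15.9%, and the order of ages was the same for every member.

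**Figure D5:**
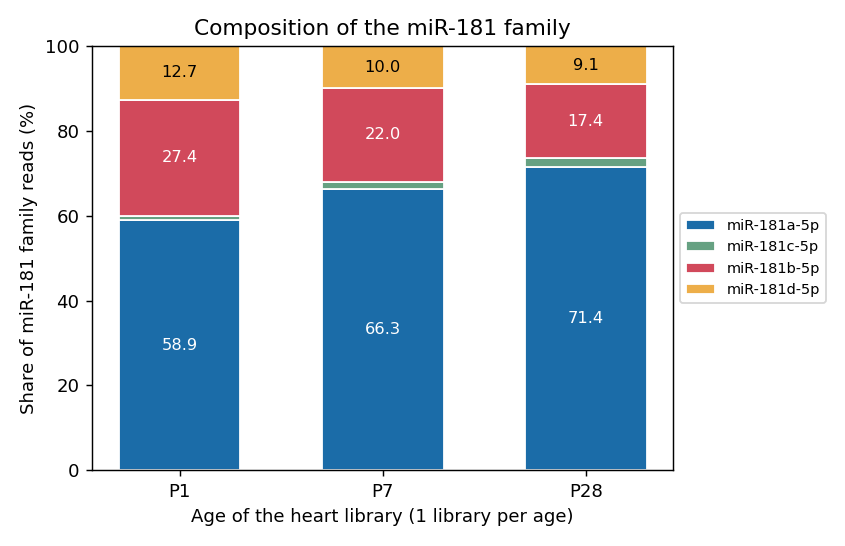
Share of miR-181 family reads (percent) held by each member in the P1, P7 and P28 heart libraries. The miR-181a-5p share increases from 58.9% to 71.4%, and the shares of miR-181b-5p and miR-181d-5p decrease from 27.4% to 17.4% and from 12.7% to 9.05%.

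Ratios of reads between members are given for all 6 pairs, with rows summed. An alternative chosen after seeing the data used only the row of most reads per accession. With it, the ratios of miR-181a-5p or miR-181b-5p to miR-181c-5p or miR-181d-5p were lower by 1.75 to 2.03 times. The changes between ages stayed within their intervals for all pairs, but that of miR-181c-5p with miR-181d-5p, with 1 row each, could not move. For each read of miR-181b-5p, the P1 library held 2.15 reads of miR-181a-5p (2.0 to 2.32), the P7 library 3.01 (2.82 to 3.22) and the P28 library 4.12 (3.78 to 4.48). From P1 to P28 this ratio changed 1.91-fold (1.71 to 2.14), with 1.40-fold (1.27 to 1.55) in the first step and 1.37-fold (1.22 to 1.52) in the second. These miRNAs are neighbours in the clusters of chromosomes 1 and 2, and the table does not say which cluster the reads came from.

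The ratio of the neighbours on chromosome 8 also changed, with the rarer miR-181c-5p coming closer to miR-181d-5p. For each read of miR-181d-5p, the P1 library held 0.0845 reads of miR-181c-5p (0.0601 to 0.116), the P7 library 0.169 (0.133 to 0.212) and the P28 library 0.241 (0.187 to 0.306). The ratio changed 2.85-fold from P1 to P28 (1.89 to 4.34), 2.0-fold over the first step (1.34 to 3.03) and 1.42-fold over the second (1.01 to 2.0). The P1 value rests on 42 reads of miR-181c-5p.

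The pairs with the most similar sequences lie in different clusters. For each read of miR-181d-5p, the P1 library held 2.16 reads of miR-181b-5p (1.94 to 2.40), the P7 library 2.21 (1.99 to 2.46) and the P28 library 1.92 (1.68 to 2.19). The change of that ratio was 0.889-fold from P1 to P28 (0.749 to 1.05), 1.03-fold over the first step (0.881 to 1.19) and 0.867-fold over the second (0.732 to 1.03), and each interval contained 1. With the larger row of miR-181b-5p alone the ratio was 1.23 in the P1 library (1.09 to 1.39), 1.19 in the P7 library (1.06 to 1.34) and 1.02 in the P28 library (0.878 to 1.19), and its change from P1 to P28 was 0.830-fold (0.684 to 1.01). The ratio of miR-181a-5p to miR-181c-5p with rows summed was 54.9 in the P1 library (40.5 to 76.4), 39.4 in the P7 library (31.9 to 49.2) and 32.8 in the P28 library (26.4 to 41.2). It changed 0.597-fold from P1 to P28 (0.400 to 0.878), so that miR-181c-5p gained on miR-181a-5p. Since these sequences differ by 1 base and miR-181a-5p had many times more reads, reads of one could be counted for the other, and the part of such reads in the miR-181c-5p values was not tested. Reads of miR-181b-5p and miR-181d-5p, which differ by 1 substitution and the last base, could likewise be counted for each other. The part of such reads in their ratio was not tested either.

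Of the remaining pairs, the ratio of miR-181a-5p to miR-181d-5p changed 1.70-fold from P1 to P28 (1.46 to 1.98), and that of miR-181b-5p to miR-181c-5p 0.312-fold (0.208 to 0.464). Thus 5 of the 6 pairs changed by more than counting error between these libraries, the exception being miR-181b-5p with miR-181d-5p. The pairs share members, so their changes were not independent. How often pairs of other accessions changed beyond counting error was not tested. By the column total, 42.7% of the 279 tested accessions were lower and 13.6% higher by at least 2-fold at P28 against P1. These shares are of single accessions past 2-fold and give no background for the count of pairs. Whether that count sets the family apart from other accessions was therefore not tested.

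The accessions outside the family whose course was most like that of the family sum were sought among 131 that averaged 100 CPM or more, by the Euclidean distance of the pair of log2 ratios for P7 against P1 and P28 against P7 over the 3 libraries. The nearest was MIMAT0000161, at a distance of 0.049, with 261, 280 and 174 CPM in the P1, P7 and P28 libraries. MIMAT0004667 followed at 0.15, with 1540, 1762 and 1056 CPM. The next 3 lay at distances up to 0.23. By the column total, like the family sum, both named accessions were slightly higher at P7 than at P1 and lowest at P28. They were chosen by these ratios, so the likeness follows from the choice. The median accession was also lower at P28 than at P7.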

How the data were processed

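Small RNA libraries were prepared with a NEBNext kit, per the labels, from hearts at P1, P7 and P28 (1 library each). The submitters' processing notes name bcl2fastq, TopHat and mm10, and the study's methods give TopHat2 and Bioconductor counting for its sequencing without singling out these libraries. The deposited table holds raw counts made by the authors, without normalization. Strand use, the rule for reads that fit several places and the miRBase release are not given in the sources used here. All 3 count columns were assigned to ages by the age code in their names.

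Rows of a mature accession were summed and divided by the column total over all rows, including 14 stem-loop rows, which held 6.72%, 4.82% and 4.04% of the P1, P7 and P28 totals. Accessions that averaged 10 CPM or more were compared, and called meant a CPM ratio of at least 2 after adding 0.5 reads. With 1 library per age, edgeR and DESeq2 tests could not be fitted and no p-value was computed. Wilson and Clopper-Pearson intervals (95%), and conditional exact intervals for changes of a read ratio, reflect read sampling alone. The sources mention no molecular identifiers, so PCR copies of a molecule are counted separately. The log2 ratios between libraries and their Clopper-Pearson intervals were checked on data simulated with counting error alone. The other intervals were not checked in this way.

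Alternatives were TMM factors (edgeR 4.0.16), DESeq2 1.42.0 size factors, totals without the 10 most abundant rows or over mature rows, a pseudocount of 5 reads, the row with the most reads of an accession, each row by itself, ratios of 1.5 and 4, and other abundance filters. Members and lists were chosen with earlier results of these data known. Named were the 4 members with every row and, of the 5 accessions nearest in course, the first 2, since neither the table nor the reference pairs accessions with names. For the same reason the 3p arms, the let-7, miR-30 and miR-26 families and the marker miRNAs planned for comparison were not analysed here. Sequences and hairpin positions came from RefSeq and overlapping genes from GENCODE vM21, both on GRCm38, and all 4 members matched by name. Software was Python 3.11.15 with scipy 1.17.1, numpy 2.4.6, pandas 2.3.3 and matplotlib 3.10.9, and R 4.3.3.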

Additional observations from a re-analysis of the deposited data

How the results depend on the processing

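No paired analysis was possible because the ages were sequenced as single libraries, and no replicate could be left out for the same reason. By the same amount as each member, the family sum moved with the scaling. For P28 over P1 its log2 ratio became 0.054 with TMM factors, 0.058 with DESeq2 size factors and -0.084 without the 10 most abundant rows. For P28 over P7 the same scalings gave -0.086, 0.0060 and -0.30. For P7 over P1 it became 0.14 with TMM factors and 0.22 without the 10 rows. With only the row of most reads per accession it was -0.017 for P7 over P1 and -0.64 for P28 over P1. TMM and DESeq2 factors moved the median of tested accessions by 0.62 and 0.63 for P28 over P1.

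For P28 over P1, TMM and DESeq2 factors each left 1 member higher and 0 lower by 2-fold. Of the 279 tested accessions, 69 were higher and 80 lower under each of these factors. Without the 10 rows 0 members were lower, beside 86 tested accessions, and with a ratio of 4 also 0, beside 64. Lowering the ratio to 1.5 put 1 member higher for P7 over P1, beside 70 of the 279 tested accessions. It put 2 members lower for P28 over P7, beside 155 of 279. The row of most reads put 1 member lower for P28 over P7, beside 119 of 279 tested accessions in the main count with rows summed. This was miR-181b-5p, at -1.01 (-1.20 to -0.82). The other 39 member counts under alternatives equalled the main count. For most of them that count was 0, which a ratio of 4 could not change.

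With only the row of most reads, the family shares at P1, P7 and P28 were 50.8%, 58.1% and 64.1% for miR-181a-5p, 21.2%, 17.7% and 15.9% for miR-181d-5p, and 1.80%, 3.0% and 3.82% for miR-181c-5p. The direction of each of these courses was kept. Of 18 read ratios between members, 14 moved beyond their interval with this row alone, and all 18 changes of a ratio between ages stayed within theirs. This alternative for ratios was chosen after seeing the data.

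Tested accessions higher and lower by the column total numbered 31 with 32 (P7 over P1), 38 with 119 (P28 over P1) and 8 with 119 (P28 over P7). TMM and DESeq2 factors both put 69 higher for P28 over P1, and the total without the 10 rows put 60 higher. For P28 over P7 they put 28 higher with 70 lower, 32 with 61, and 17 higher. At a ratio of 1.5 there were 70 with 65 for P7 over P1, and 22 higher for P28 over P7. In the order of the main counts, a ratio of 4 left 2 with 2, 9 with 64, and 4 with 44. No filter yielded 208 with 188, 172 with 357, and 111 with 358. A filter of 1 CPM yielded 67 with 71, 76 with 211, and 39 with 204, and one of 100 CPM yielded 17 with 14, 19 with 46, and 2 with 44. Depth limits miR-181c-5p most, with 42 to 88 reads per library.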
